A study of Mus musculus with 16 samples.

Results

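A set of genes of mitochondrial fatty acid oxidation, ketone body metabolism and PPAR signalling was followed in EpCAM+ cells sorted from the distal colon of 16 mice. The 9 members are Cpt1a, Acadm, Acads, Acaa2, Hadh, Bdh1, Ppara, Pparg and Angptl4, that is, 9 of 22396 gene symbols in the deposited tables. They were picked by name and not by a cut on their values, though earlier results of these data were known. RNA was sequenced from 4 control and 5 Tnfr2ko mice on water, and from 3 control and 4 Tnfr2ko mice that drank dextran sulfate sodium (DSS), a detergent-like polymer that injures the colonic epithelium. By the methods of the study, cells of DSS mice came from injured regions, dissected away from unaffected colon. The choice of region and the treatment therefore cannot be told apart. Every mouse carried Tnfr2-f/f, in which loxP sites flank exon 2 of Tnfrsf1b, the gene of TNF receptor 2. Controls had no Cre, and the Tnfr2ko mice also carried Vil1::Cre, which is driven by the villin promoter in the intestinal epithelium and leaves other cells unrecombined. The labels give 3% DSS for 6 days with dissection on day 12, whereas the methods of the study give 3.5% DSS, mice aged 8 weeks and uninjured animals taken before DSS. All 7 DSS mice were female. Of these, cage c held 1 control (number 3) and 1 Tnfr2ko mouse (number 1), and cage d held 2 controls and 3 Tnfr2ko mice. The water mice came from cage a, all male (4 mice), and cage b, all female (5 mice), so cage and sex were the same split there, and no cage held both treatments.

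Colonocytes take much of their energy from butyrate and other short-chain fatty acids made by bacteria. Fatty acids enter mitochondria directly when short or as acylcarnitines when long, and are then shortened by a repeated cycle of dehydrogenation, hydration, a further dehydrogenation and thiolysis that releases acetyl-CoA. Acetyl-CoA that is not burned can be turned into ketone bodies. PPARs are nuclear receptors that bind fatty acids, pair with retinoid X receptors and switch on many genes of these steps, PPAR-alpha mostly in oxidative tissues and PPAR-gamma in adipocytes and also in colonic epithelium.

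Values are TPM, a relative abundance that accounts for transcript length, summed over the principal transcripts listed for a gene. The tables of the 2 treatments were scaled apart from each other, so genotype was tested only inside a treatment and DSS was set against water without a test. For that description, a single rescaling was applied to all 16 mice (median of ratios over 7638 genes), and levels below are rescaled TPM unless said otherwise. Nothing in the labels states more than that the mice were separate samples, and p-values cover the spread between them.

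The members are protein-coding genes on separate chromosomes but for Acadm and Hadh (GRCm38, GENCODE M21). Cpt1a lies at chr19:3322334-3385733, Acadm at chr3:153922357-153944632, Acads at chr5:115110299-115119346, Acaa2 at chr18:74779197-74806208 and Hadh at chr3:131233419-131272101. Bdh1 lies at chr16:31422280-31458901, Ppara at chr15:85734983-85802819, Pparg at chr6:115360951-115490399 and Angptl4 at chr17:33773750-33781830. The TPM cover whole spliced transcripts, untranslated ends included, but not all transcripts of a gene. They cover 1 of 8 annotated transcripts of Cpt1a, 1 of 10 of Acadm, 1 of 4 of Acads and of Angptl4, and 1 of 2 of Acaa2 and of Hadh. They cover 1 of 7 of Pparg, 3 of 7 of Bdh1 and 3 of 6 of Ppara.

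Facts about the libraries bear on each result. Only principal isoforms were kept, and the TPM listed for a mouse added up to between 487469 and 861109. The cause of that range was not tested. Epcam lay between 644 and 796 in the water mice and had a median of 801 in the DSS mice. Of the 15 epithelial markers, 6 had a higher and 9 a lower mean after DSS, 1 of them (Klf5) lay higher without overlap, and their median difference after the single rescaling was -0.29 on the log2 scale, beside -0.30 for the 8 members averaging 1 TPM or more. As deposited the epithelial median was 0.08. The leukocyte markers made up 0.705% to 17.3% of the listed TPM in water libraries and 0.0171% to 0.635% in DSS libraries. All 10 macrophage markers had a lower mean after DSS, 9 of them without overlap. Of the 11245 genes that averaged 1 TPM or more, 4.09% were higher and 7.20% lower without overlap. Of 10 adipocyte markers, Adipoq, Lep and Cfd were listed at 0 in every mouse and 2 averaged 1 TPM or more. The 10 summed to 5.20 to 24.5 in water mice and 9.05 to 25.5 in DSS mice, most of it from Fabp4, at 3.43 to 22.6 in water mice and 6.73 to 22.6 in DSS mice, with Cidec averaging 1.13. The goblet markers summed to between 5873 and 9696 in water mice, to 8238 in DSS control 3 and to at most 3553 in the other DSS mice. DSS control 3, the only DSS control from cage c, stood apart in other ways too. Without it, the genes in which all DSS mice lay above or all below the water mice went from 460 and 810 to 1319 and 1398. Tnfrsf1b itself lay between 12.4 and 17.4 in water controls and between 9.89 and 16.9 in the water Tnfr2ko mice, and between 10.8 and 19.6 against between 11.6 and 22.4 after DSS. The genotype groups overlapped in both treatments (exact two-sided permutation p = 0.198 in water and 0.629 after DSS). A TPM of the whole transcript does not check the loss of a single exon, so the Cre-carrying mice are called labelled knockout throughout.

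Hadh, the 3-hydroxyacyl-CoA dehydrogenase that carries out the second oxidation of the cycle on short and medium chains, was the most abundant of the members in 16 of 16 mice. Acads, the dehydrogenase that starts the oxidation of butyryl-CoA, exceeded Acaa2 and Cpt1a in all 16 mice and Acadm in 14. The order below Acads was less firm. Acadm, the medium-chain counterpart, exceeded Cpt1a, which makes acylcarnitines at the outer membrane and gates the entry of long chains, in 13 of 16 mice. Acaa2, the thiolase that ends the cycle, exceeded Acadm in 6 of 9 water mice but in 1 of 7 DSS mice. Bdh1, which interconverts acetoacetate and beta-hydroxybutyrate, lay above Acadm in 8 mice and below it in 8. In every library these 6 enzyme genes ranked between the 85.9th and 96.9th percentile of the 11245 genes that averaged 1 TPM or more. The receptor genes ranked far lower, Ppara between the 7.11th and 21.6th percentile and Pparg between the 1.94th and 77.8th, and Angptl4 stayed under 1 TPM on average and was not ranked.

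**Figure D1:**
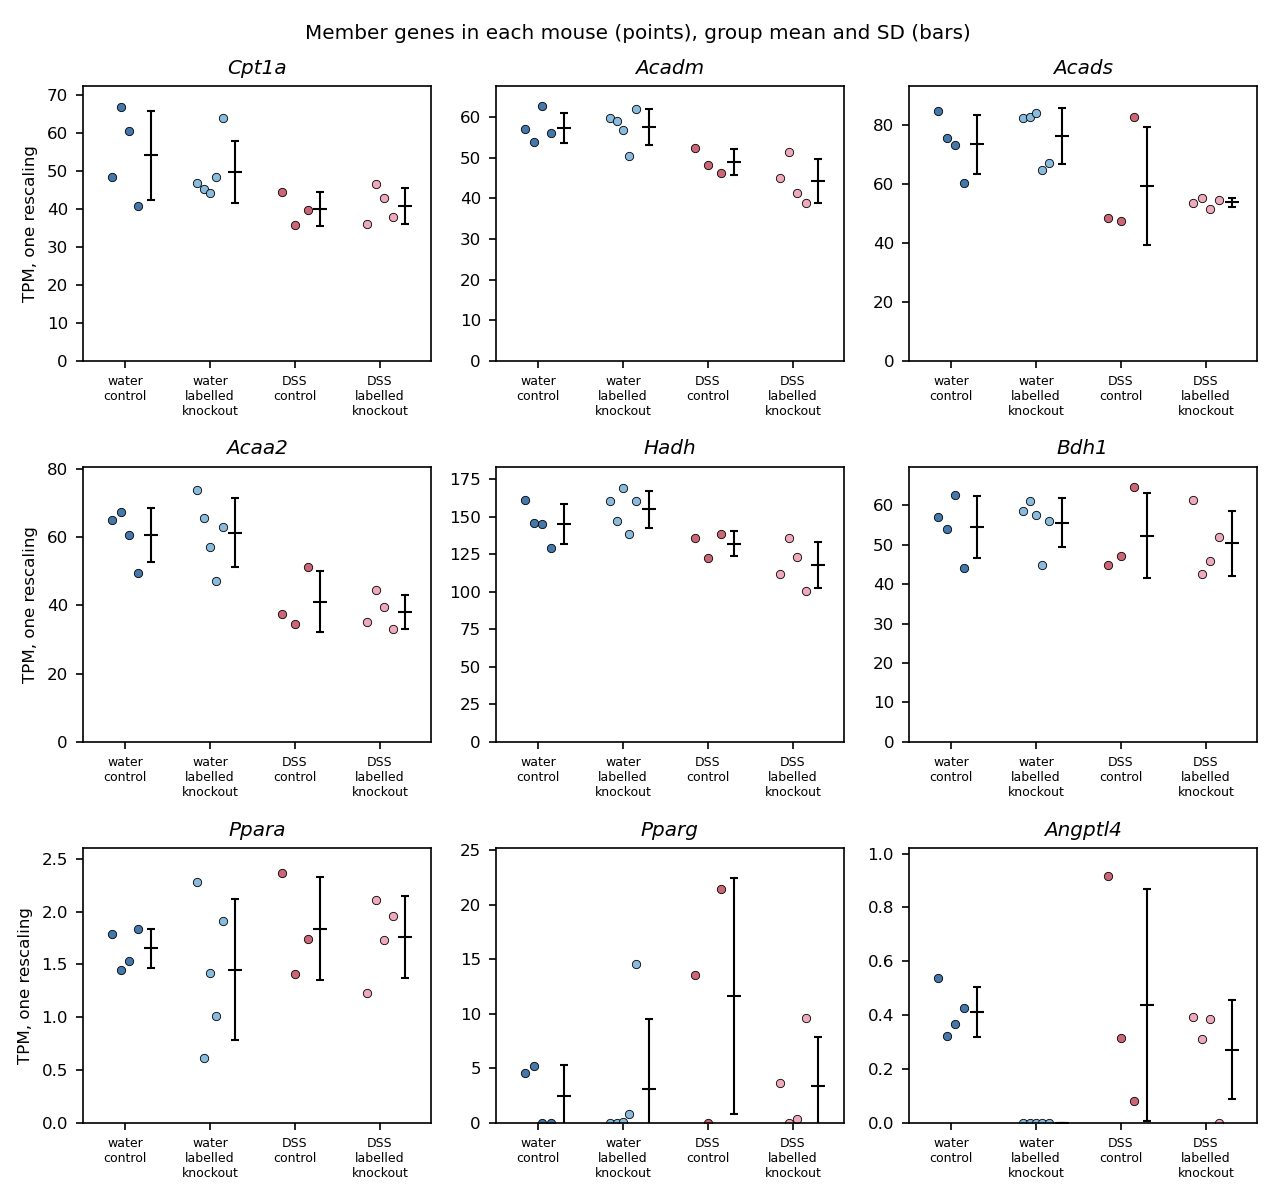
Level of each member gene (vertical axis, TPM after a single rescaling of 16 mice) in each mouse (points), by group, with the group mean and SD (bars, clipped at 0). The DSS points of Acadm and Hadh sit mostly under the water points, Pparg is near 0 in some mice of every group and above 3 in others, and Angptl4 is at 0 in all 5 water mice labelled knockout.

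The entry and oxidation genes lay on average lower in the DSS mice, without separating from the water mice. Cpt1a was 48.5, 66.7, 60.5 and 40.8 in the water controls and 46.9, 45.2, 44.3, 48.5 and 64.0 in the water mice labelled knockout. In the DSS mice Cpt1a was 44.5, 35.8 and 39.7 in controls and 36.0, 46.5, 43.0 and 37.8 in those labelled knockout. All 7 DSS mice lay under the water median of 48.5 and 6 of 9 water mice lay over the highest DSS mouse, so the ranges overlapped in part. The difference of mean log2(TPM + 1) was -0.33, with a between-mouse SD of 0.22.

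Acadm was the steadiest of the set. Its within-group SD was 0.13 on the log2 scale of deposited TPM, lower than in all but 3.92% of the genes that averaged 5 TPM or more. Its water values were 57.1, 53.9, 62.7 and 56.0 in controls and 59.7, 59.0, 56.8, 50.6 and 62.1 in mice labelled knockout. Its DSS values were 52.4, 48.2 and 46.3 in controls and 45.1, 51.3, 41.3 and 39.0 in mice labelled knockout. Only water mouse 4 labelled knockout fell inside the DSS range, and the difference was -0.31 with an SD of 0.12.

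Acads had 84.6, 75.8, 73.3 and 60.4 in water controls and 82.3, 82.8, 84.2, 64.7 and 67.0 in the water mice labelled knockout. After DSS it had 48.4, 47.4 and 82.6 in controls and 53.7, 55.2, 51.5 and 54.7 in mice labelled knockout. The 82.6 of DSS control 3 lay among the water mice, and the other 6 DSS mice were under the lowest water mouse. The difference was -0.42 with all mice and -0.52 without DSS control 3.

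Acaa2 showed the largest difference among the enzymes, -0.62 with an SD of 0.23, or 0.65 times the water level. It was 65.2, 67.4, 60.6 and 49.5 in water controls and 74.0, 65.7, 57.2, 47.1 and 62.9 in the water mice labelled knockout. After DSS it was 37.6, 34.4 and 51.3 in controls and 35.2, 44.6, 39.5 and 33.1 in mice labelled knockout. DSS control 3 was again the highest of its treatment and the only DSS mouse inside the water range.

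Hadh was 161, 146, 145 and 129 in water controls and 160.5, 147, 169, 138 and 160.2 in water mice labelled knockout. It was 136, 122 and 138 in DSS controls and 112, 136, 123 and 101 in DSS mice labelled knockout. Control 4 was the only water mouse not above every DSS mouse, and the difference was -0.28 with an SD of 0.14. The gene is also the best covered: the authors' mean of estimated counts, taken on a natural log scale and converted back, was 1372 in the DSS table and 626 in the water table.

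No member lay wholly above or wholly below between treatments, 0 of the 8 that averaged 1 TPM or more. The background was 4.09% of 11245 genes for all DSS mice higher and 7.20% for all DSS mice lower. Among the controls alone Acadm was lower without overlap (background 14.8% for 4 against 3 mice), and among the mice labelled knockout Acads, Acaa2 and Hadh were (background 18.4% for 5 against 4 mice). Without DSS control 3, Acads and Acaa2 separated, where 12.4% of all genes did. With female mice only, none of the 8 separated (background 6.40% higher and 11.2% lower for 5 against 7 mice). The differences of the enzyme genes there ran from -0.52 for Acaa2 to -0.01 for Bdh1.

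The sign of these differences depended on the scale. As deposited, Cpt1a, Acadm and Hadh differed by 0.03, 0.05 and 0.09, Acads by -0.06 and Acaa2 by -0.26, while the median of all genes shifted to 0.31, against -0.01 after the single rescaling. Scaled by 15 epithelial genes, the differences of Cpt1a, Acadm, Acads, Acaa2 and Hadh were -0.08, -0.06, -0.17, -0.37 and -0.03, beside 0.21 for all genes. Of all genes, 18.8% were higher and 4.21% lower without overlap as deposited, and 3.08% and 5.42% on the epithelial scale, and 0 of the 8 members separated on either. On these 3 scales, on equal TPM totals and on percentile ranks the 6 enzyme genes lay below the median of all genes tested, Bdh1 by the least. Apart from the ranks, these scales differ only by a factor per library, which moves all genes of a library nearly alike. That agreement between scales was therefore largely fixed in advance.

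**Figure D2:**
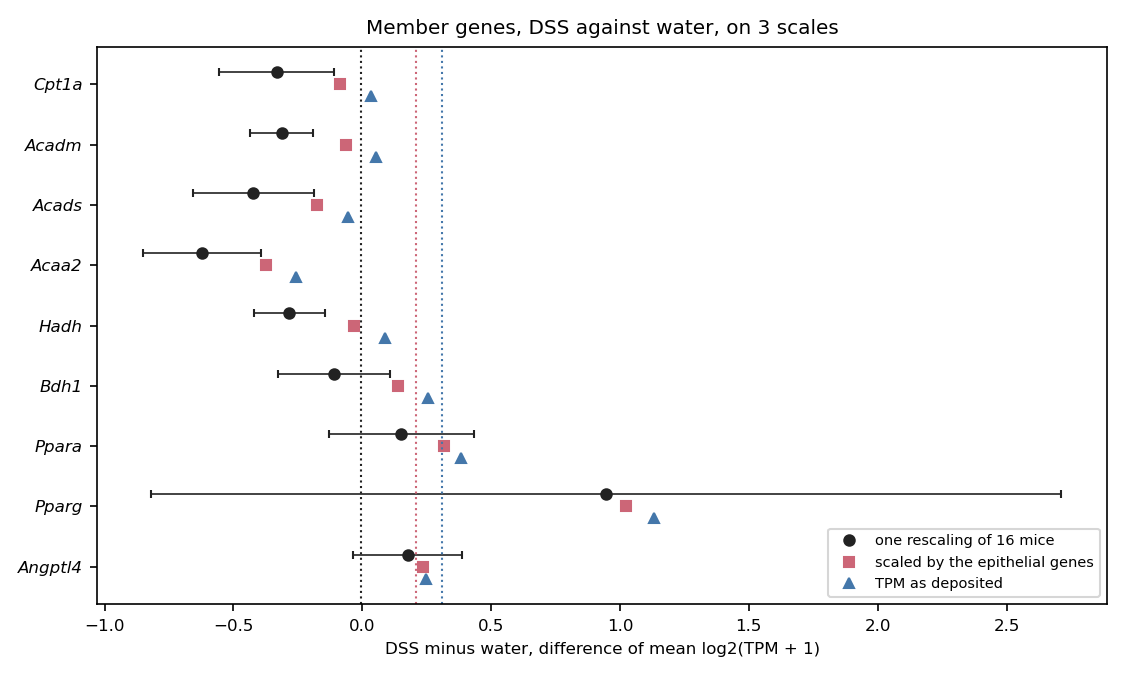
Difference between DSS and water mice (horizontal axis, mean log2(TPM + 1)) for each member gene on 3 scales, with the between-mouse SD as bars on the single rescaling and a dotted line at the median of all genes tested for each scale. Cpt1a, Acadm and Hadh change sign from -0.33, -0.31 and -0.28 after the rescaling to 0.03, 0.05 and 0.09 as deposited. The 6 enzyme genes lie left of the line of their own scale, a place that a factor per library hardly changes.

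Cpt1a and Acadm serve to show the region around the transcription start, from 250 bases upstream to 50 bases inside the transcript (RefSeq, GRCm38.p6). Both are classical PPAR targets, and the capitals mark the nuclear receptor motif AGGTCA or its reverse complement TGACCT, searched on both strands. Cpt1a lies on the forward strand of chr19:3323051-3323350 and Acadm on the reverse strand of chr3:153944594-153944893.
Cpt1a: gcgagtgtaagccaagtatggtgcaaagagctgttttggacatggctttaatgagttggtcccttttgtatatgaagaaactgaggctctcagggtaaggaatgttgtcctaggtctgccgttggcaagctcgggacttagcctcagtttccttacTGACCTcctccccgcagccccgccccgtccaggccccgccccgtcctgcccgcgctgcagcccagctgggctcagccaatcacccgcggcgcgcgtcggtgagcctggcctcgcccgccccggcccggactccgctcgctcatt
Acadm: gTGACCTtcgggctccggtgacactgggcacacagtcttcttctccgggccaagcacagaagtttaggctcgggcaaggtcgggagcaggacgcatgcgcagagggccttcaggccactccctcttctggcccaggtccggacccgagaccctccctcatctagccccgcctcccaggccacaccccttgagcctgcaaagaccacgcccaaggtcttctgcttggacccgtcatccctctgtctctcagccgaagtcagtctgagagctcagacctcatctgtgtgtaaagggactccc
Cpt1a had the motif 94 bases and Acadm 249 bases before the start. Of all 32851 promoters in the table, 16.3% held AGGTCA on either strand. Promoters of 7 of the 9 members were searched, 10 in all, and 4 of those 10 held the motif (Cpt1a, Acadm and 2 starts of Pparg). The longer TCAAGGTCA and a pair of AGGTCA copies 1 base apart, the usual form of a PPAR element, were in none of the 10 and in 0.423% and 0.0396% of all promoters. A match is a run of letters and not a bound site.

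The Bdh1 sum overlapped between treatments, while in 3 of 7 DSS mice its shortest transcript was under 3 TPM and both other listed forms were higher. The sum was 57.0, 54.0, 62.7 and 44.0 in water controls and 58.6, 61.0, 57.6, 44.8 and 56.0 in water mice labelled knockout. It was 44.9, 47.2 and 64.6 in DSS controls and 61.3, 42.6, 45.8 and 52.0 in DSS mice labelled knockout. The treatments overlapped almost fully, with a difference of -0.11 and an SD of 0.22. The 64.6 and 61.3, the highest after DSS, belonged to the DSS mice of cage c. Cage was not tested among the DSS mice.

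The tables list 3 principal transcripts of Bdh1, of 1496, 1711 and 3122 bases. In the deposited TPM, the 1496-base form ranged from 14.6 to 34.8 in the 9 water mice, and was 0, 13.9 and 37.4 in the DSS controls and 33.7, 2.09, 1.80 and 24.2 in the DSS mice labelled knockout. The 1711-base form was at 27.7, 25.3 and 24.1 in the 3 DSS mice where the short form was under 3. It was between 6.07 and 11.01 in the other 4, below the short form of the same mouse. The 3122-base form stayed between 13.5 and 21.3 in water and between 22.3 and 32.6 after DSS. As deposited, the treatments are scaled apart, and 18.8% of all genes were higher without overlap. Divided by the factors of the single rescaling, the 2 ranges of this form overlapped. Of the 31-base words (overlapping runs of 31 bases) of the short and middle forms, 19.9% and 13.7% occur in no other annotated transcript of Bdh1, and 0.129% of those of the long form do. Set against the other listed forms alone, 53.1% of the words of the long form are its own. The split between the forms rests on reads from such words. The sum does not rest on the split among the listed forms. It covers 3 of 7 annotated transcripts, though, and can depend on how shared reads are divided between listed and unlisted forms.

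**Figure D3:**
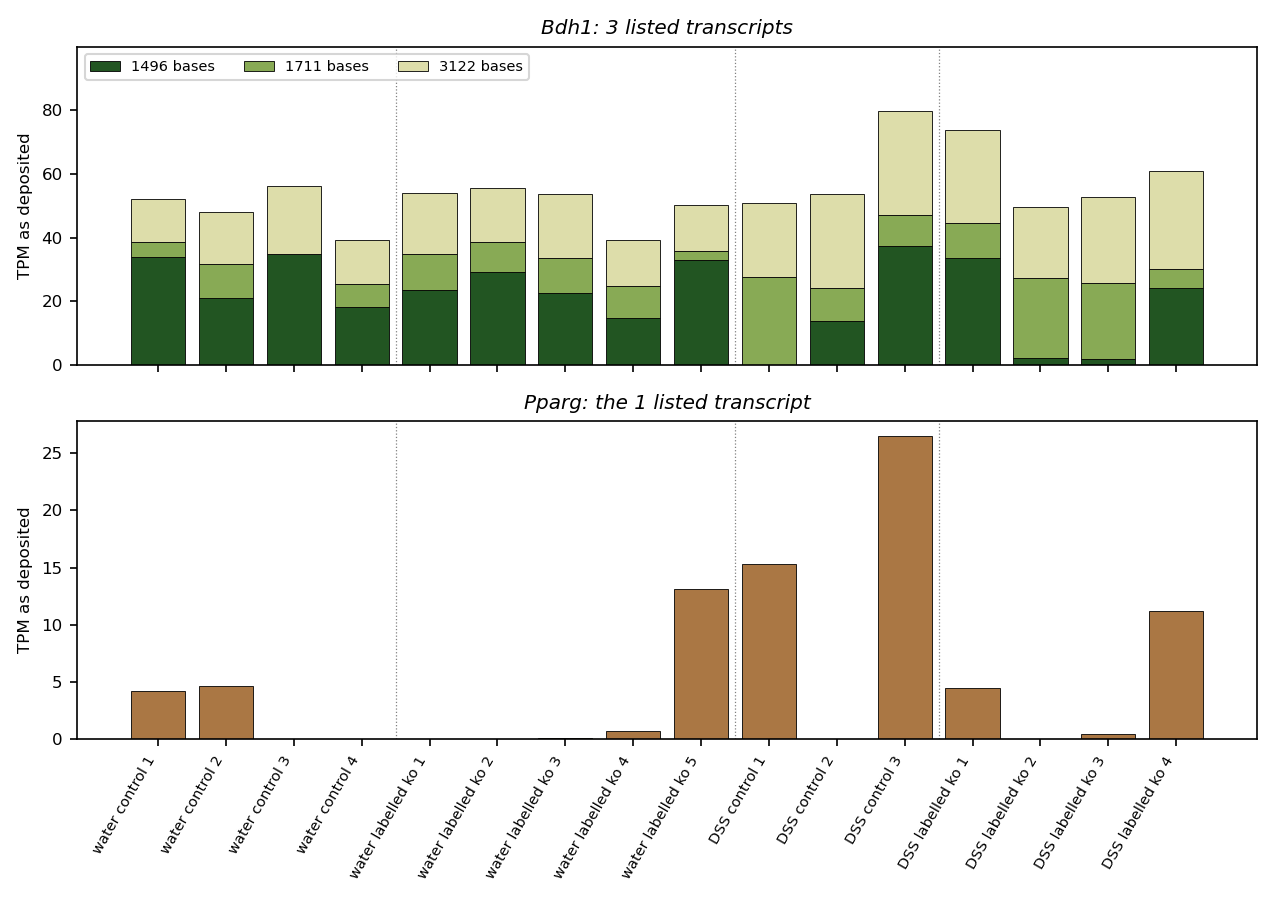
Deposited TPM (vertical axis) of the 3 listed Bdh1 transcripts, stacked, and of the 1 listed Pparg transcript, in each mouse, with dotted lines between groups. The 1496-base Bdh1 form is near 0 in 3 DSS mice, in which the 1711-base form is at 24.1 to 27.7, and Pparg ranges from 0 to 26.5 among mice of the same treatment.

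The rest of ketone body metabolism was measured with Bdh1. Acat2, a thiolase of the cytosol, lay above in all DSS mice, at 22.3 to 32.2 against 10.9 to 22.1, a difference of 0.85. Of the 8 genes of the list that averaged 1 TPM or more, Acat2 alone separated, 4 had a higher and 4 a lower mean, and the median was 0.16. Acat2 also separated alone as deposited and on the epithelial scale, where the medians were 0.52 and 0.40. The share of all genes higher without overlap was 4.09% after the single rescaling, 18.8% as deposited and 3.08% on the epithelial scale.

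Ppara was low in all mice. It was 1.79, 1.45, 1.54 and 1.83 in water controls and 2.28, 0.618, 1.41, 1.01 and 1.91 in water mice labelled knockout. It was 2.37, 1.40 and 1.74 in DSS controls and 1.23, 2.11, 1.73 and 1.96 in DSS mice labelled knockout. The ranges overlapped, with a difference of 0.15 and an SD of 0.28. Of its 3 listed transcripts, the 3413-base form alone was above 0 in all 7 DSS mice, where the authors' mean of estimated counts came to 32.9.

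Pparg, which encodes PPAR-gamma, was present or nearly absent from mouse to mouse. With values too small to print given as 0, it was 4.58, 5.20, 0 and 0 in water controls and 0, 0, 0.0882, 0.781 and 14.6 in the water mice labelled knockout. It was 13.5, 0 and 21.4 in DSS controls and 3.67, 0.00074, 0.364 and 9.56 in DSS mice labelled knockout. Every group held mice near 0 and mice above 3, so the mean difference of 0.95 was smaller than the between-mouse SD of 1.77. The within-group spread, taken on deposited TPM, was larger than in 97.7% of genes that averaged 5 TPM or more. Pparg itself averaged 4.61, and other genes under 5 TPM were not in this comparison.

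These values belong to a single isoform. The tables list 1 of 7 annotated Pparg transcripts, 1767 bases long and starting at position 115422066 of chromosome 6, and the TPM of the 6 others are not analysed here. Its coding sequence begins with 82 bases that are in no exon of the other 6, on the forward strand of chr6:115422111-115422192 (GRCm38, GENCODE M21), printed from the start codon, which is in capitals.
Pparg coding start: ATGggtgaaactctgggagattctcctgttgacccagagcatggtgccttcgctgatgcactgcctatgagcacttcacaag
Of the 31-base words of that transcript, 7.25% occur in no other Pparg transcript, so most of its reads could be assigned to any of several isoforms. The 2 promoters below are those of the listed form and of the farthest upstream start, both on the forward strand, chr6:115421816-115422115 and chr6:115360894-115361193, with AGGTCA in capitals.
Pparg listed start: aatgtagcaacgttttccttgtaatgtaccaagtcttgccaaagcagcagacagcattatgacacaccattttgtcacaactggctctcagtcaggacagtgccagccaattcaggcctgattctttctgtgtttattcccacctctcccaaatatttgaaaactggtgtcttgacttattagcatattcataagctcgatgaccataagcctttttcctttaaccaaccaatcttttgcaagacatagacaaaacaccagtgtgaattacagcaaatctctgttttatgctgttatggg
Pparg upstream start: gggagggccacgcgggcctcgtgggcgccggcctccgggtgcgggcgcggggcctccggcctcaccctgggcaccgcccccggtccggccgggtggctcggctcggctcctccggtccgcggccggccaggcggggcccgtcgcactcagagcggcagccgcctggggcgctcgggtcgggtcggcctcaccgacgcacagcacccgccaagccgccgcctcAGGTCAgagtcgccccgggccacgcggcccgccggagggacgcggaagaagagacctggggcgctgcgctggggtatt
The upstream start had AGGTCA 28 bases before the start and 80.3% G and C, and the listed start had no match and 40.3% G and C. A value of 0 in the tables therefore belongs to the listed form, which starts at position 115422066, and says nothing of the gene as a whole.

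Among the receptors and their partners, Ppard, the third PPAR gene, had the highest TPM of the PPAR genes as listed. Pparg is covered there by 1 isoform only. Ppard was at 29.3 to 44.0 in water mice (median 39.9) and 19.5 to 41.3 in DSS mice (median 26.7). DSS control 3 had the 41.3 and the ranges overlapped, with a difference of -0.51. Ppargc1a, a coactivator of mitochondrial genes, ranged from 2.44 to 4.33 in water mice and from 1.61 to 3.40 in DSS mice. Of 18 genes in the list of receptors, partners and coregulators averaging 1 TPM or more, none separated after the single rescaling, 11 had a higher mean after DSS and 7 a lower one, and the median was 0.14. As deposited 4 were higher without overlap (Pprc1, Ncor1, Crebbp and Ep300), with a median of 0.42, beside 18.8% of all genes. On the epithelial scale Pprc1 alone was, with a median of 0.33, beside 3.08% of all genes.

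Angptl4, a secreted inhibitor of lipoprotein lipase and a common readout of PPAR activity, was under 1 TPM on average in each group. It was 0.537, 0.323, 0.365 and 0.426 in the water controls and was listed at 0 in all 5 water mice labelled knockout. It was 0.917, 0.315 and 0.0796 in DSS controls and 0.393, 0.309, 0.385 and 0 in DSS mice labelled knockout. The water groups did not overlap (exact two-sided permutation p = 0.00794, the smallest that 4 against 5 mice allow), and the DSS groups did (exact permutation p = 0.60). In water, all controls lay above all mice labelled knockout in 135 of 16921 genes, or 0.798%. In 13 genes the controls were all above 0 and the mice labelled knockout all at 0, and in 1 gene the reverse held.

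The depth behind that difference was small. From the authors' mean counts, 1 read of this 3308-base transcript was worth about 0.116 TPM in the water table and 0.056 in the DSS table, so the water controls rest on about 2.49 to 4.25 reads each. With the minimum of 1 TPM the gene was not tested. In the run with no such minimum, limma gave it an adjusted p of 0.0336, 1 of 4 genes called among 16921, or 0.0236%. The same run after DSS gave an adjusted p of 0.98. Whether genotype acted differently in the 2 treatments was not tested.

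None of the other 8 members passed the test of the genotype label. After DSS, limma called 1 of 10899 genes at an adjusted p under 0.05, or 0.00918%, and 289 had an unadjusted p under 0.05, or 2.65%. In water it called 1 of 11046, or 0.00905%, and 583 had an unadjusted p under 0.05, or 5.28%. Among the 8 members 0 were called in either treatment and 0 had an unadjusted p under 0.05. The genes called were Tra2a after DSS and Dus2 in water, neither of them in a list used here.

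After DSS, the log2 fold changes (labelled knockout minus control, with SE) were 0.04 ± 0.13 for Cpt1a, -0.14 ± 0.13 for Acadm, -0.09 ± 0.22 for Acads and -0.09 ± 0.19 for Acaa2. Those of Hadh and Bdh1 were -0.16 ± 0.14 and -0.04 ± 0.20. In water they were -0.09 ± 0.16, 0.02 ± 0.09, 0.07 ± 0.14 and 0.03 ± 0.15 for Cpt1a, Acadm, Acads and Acaa2, and 0.11 ± 0.11 and 0.05 ± 0.14 for Hadh and Bdh1. No enzyme gene differed by as much as 2 SE, and the adjusted p from limma was 1.00 for each after DSS and between 0.87 and 0.98 in water. The receptors were less precise. Ppara differed by -0.04 ± 0.23 after DSS and -0.14 ± 0.23 in water, and Pparg by -1.30 ± 1.29 and -0.28 ± 0.92. Exact permutation tests of the TPM of the 8 gave p between 0.286 and 0.929 over both treatments, where the smallest possible values are 0.0286 after DSS and 0.00794 in water.

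**Figure D4:**
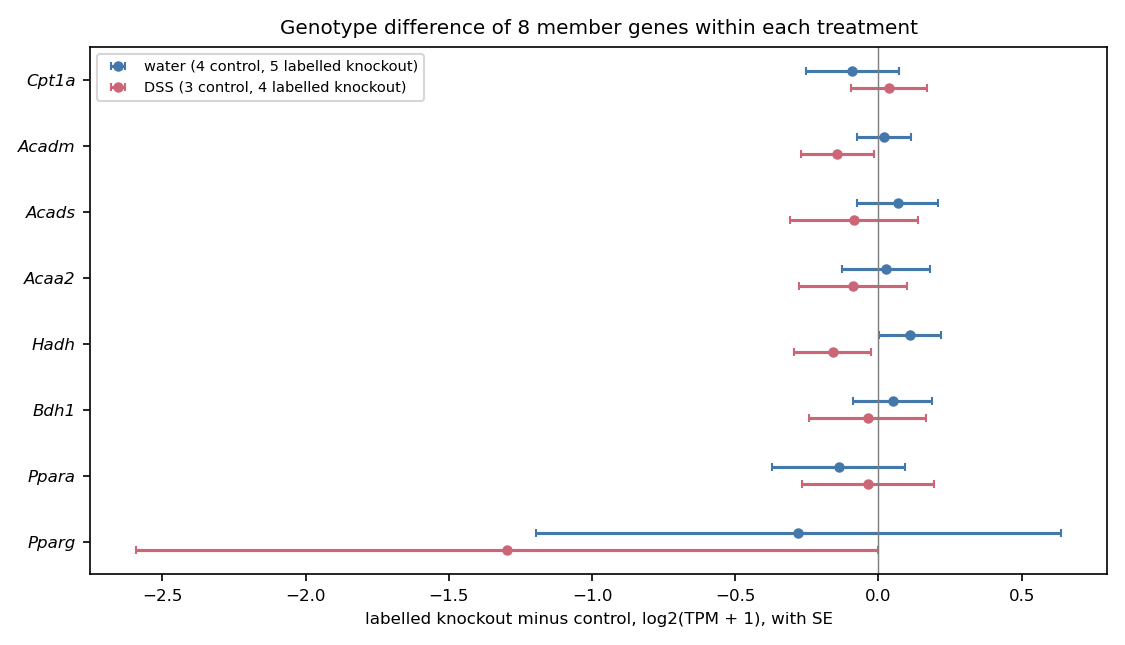
Genotype difference (horizontal axis, labelled knockout minus control in log2(TPM + 1), with SE) of 8 member genes in water and after DSS. The enzyme genes lie between -0.16 and 0.11, and the bars of Pparg are the widest, with an SE of 0.92 in water and 1.29 after DSS.

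Cage and sex were also set against the members in water. limma called 4 of 11046 genes for that split, or 0.0362%, and none was a member. Acads, Acaa2 and Bdh1 were on average lower in the female cage, by -0.23 ± 0.13, -0.25 ± 0.14 and -0.25 ± 0.12 on the log2 scale with SE, with adjusted p of 0.77, 0.77 and 0.75. Pparg differed by 0.88 ± 0.93.

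After the single rescaling, Slc25a20 and Acadvl were the genes of mitochondrial oxidation that separated between treatments. Slc25a20, the carrier that brings acylcarnitines across the inner membrane, ranged from 52.1 to 68.5 in water and from 25.2 to 49.7 after DSS, a difference of -0.86. Acadvl, the very-long-chain dehydrogenase, ranged from 51.6 to 71.2 and from 35.2 to 49.4, a difference of -0.43. In both genes every DSS mouse was below every water mouse, and neither separated as deposited or on the epithelial scale. In the whole list 30 of 31 genes were measured, 2 were lower without overlap and 0 higher, 12 had a higher and 18 a lower mean, and the median was -0.07 beside -0.01 for all genes. As deposited, 5 were higher and 0 lower without overlap, with a median of 0.29. On the epithelial scale 0 separated in either direction, with a median of 0.18. Over all genes, 4.09% were higher and 7.20% lower without overlap after the single rescaling, and 18.8% and 4.21% as deposited. The 2 lower and the 5 higher genes were thus near the shares of all genes. On the single rescaling the members lay to the lower side of their own list.

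The genes of short-chain fatty acid uptake and activation overlapped between treatments after the single rescaling. Slc16a1, a monocarboxylate transporter that carries butyrate, ranged from 47.1 to 65.2 in water and from 34.4 to 58.1 after DSS. Slc5a8, a sodium-coupled transporter of the same acids, ranged from 52.1 to 74.3 and from 47.4 to 66.3. Of 10 genes averaging 1 TPM or more, 3 had a higher and 7 a lower mean, with a median of -0.16. As deposited, Acsf2 was higher without overlap, as were 18.8% of all genes, and the median was 0.20. On the epithelial scale none separated and the median was 0.09.

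In the peroxisome, Acaa1a was lower in all DSS mice after the single rescaling, as were 7.20% of all genes. Acaa1a, the thiolase of peroxisomal oxidation, went from a range of 46.1 to 60.3 to one of 20.1 to 44.6, a difference of -0.94, with DSS control 3 at the 44.6. Of 19 genes of that list measured at 1 TPM or more, 7 had a higher and 12 a lower mean, none was higher without overlap, and the median was -0.19. Acaa1a separated neither as deposited nor on the epithelial scale, with differences of -0.58 and -0.69. As deposited 2 others were higher without overlap (Abcd3 and Crot), with a median of 0.15, beside 18.8% of all genes. On the epithelial scale none was higher and the median was 0.03.

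Of 30 PPAR target genes averaging 1 TPM or more, 4 were lower without overlap (Cd36, Plin2, Slc25a20 and Txnip) and 0 higher, with a median of -0.08. As deposited and on the epithelial scale 2 were lower (Cd36 and Plin2) and 0 higher, with medians of 0.21 and 0.12. Slc25a20 and Txnip overlapped on both. The share of all genes lower without overlap was 7.20% after the single rescaling, 4.21% as deposited and 5.42% on the epithelial scale. Plin2, which coats lipid droplets, was between 61.2 and 82.1 in water and between 29.4 and 39.2 after DSS, a difference of -0.94. Cd36, a fatty acid translocase, was between 23.5 and 78.6 in water and between 0.772 and 4.86 after DSS, a difference of -3.98. Cd36 is also a gene of macrophages and endothelium, and the macrophage markers differed by a median of -5.32 and the endothelial ones by -0.18 between the same libraries, and their part in the Cd36 values was not tested. Pdk4, a kinase that turns off pyruvate dehydrogenase, overlapped, at 0.811 to 8.07 in water and 0.785 to 8.24 after DSS. Fewer cells of a type and less RNA per cell cannot be told apart in these bulk libraries.

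Fatty acid synthesis had the opposite lean. Elovl6, Fasn and Acaca, which elongate chains, build palmitate and supply its malonyl-CoA, were higher in all DSS mice. Elovl6 went from between 3.69 and 6.02 to between 8.25 and 17.8, a difference of 1.40. Fasn went from between 2.08 and 5.23 to between 6.01 and 7.59 and Acaca from between 6.19 and 8.13 to between 9.34 and 13.6, differences of 0.72 and 0.67. All 3 also separated as deposited and on the epithelial scale. Gpam, the acyltransferase that begins glycerolipid synthesis, lay lower in all DSS mice, by -0.48, and overlapped as deposited (-0.17) and on the epithelial scale (-0.27). Of 21 genes measured at 1 TPM or more, 4 were higher (these 3 and Oxsm) and 1 lower without overlap, and the median was 0.32, the highest of the 7 lists. As deposited the same 4 were higher and 0 lower, with a median of 0.63. On the epithelial scale 3 were higher, Oxsm no longer, and 0 lower, with a median of 0.56. Of all genes, 4.09% were higher without overlap after the single rescaling, 18.8% as deposited and 3.08% on the epithelial scale.

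Cell type markers moved with the same split. The proliferation markers had a median difference of 0.35, with 9 of 10 higher on average and sums of 187 to 340 in water and 274 to 419 after DSS. Of the proliferation markers 1 was higher without overlap, as were 4.09% of all genes. The absorptive colonocyte markers had a median of -0.68, with 9 of 14 lower, 2 of them without overlap. The goblet markers had -1.66, with 9 of 10 lower, also 2 of them without overlap. Of all genes, 7.20% were lower without overlap. The part of these cell types in the fatty acid genes was not tested.

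**Figure D5:**
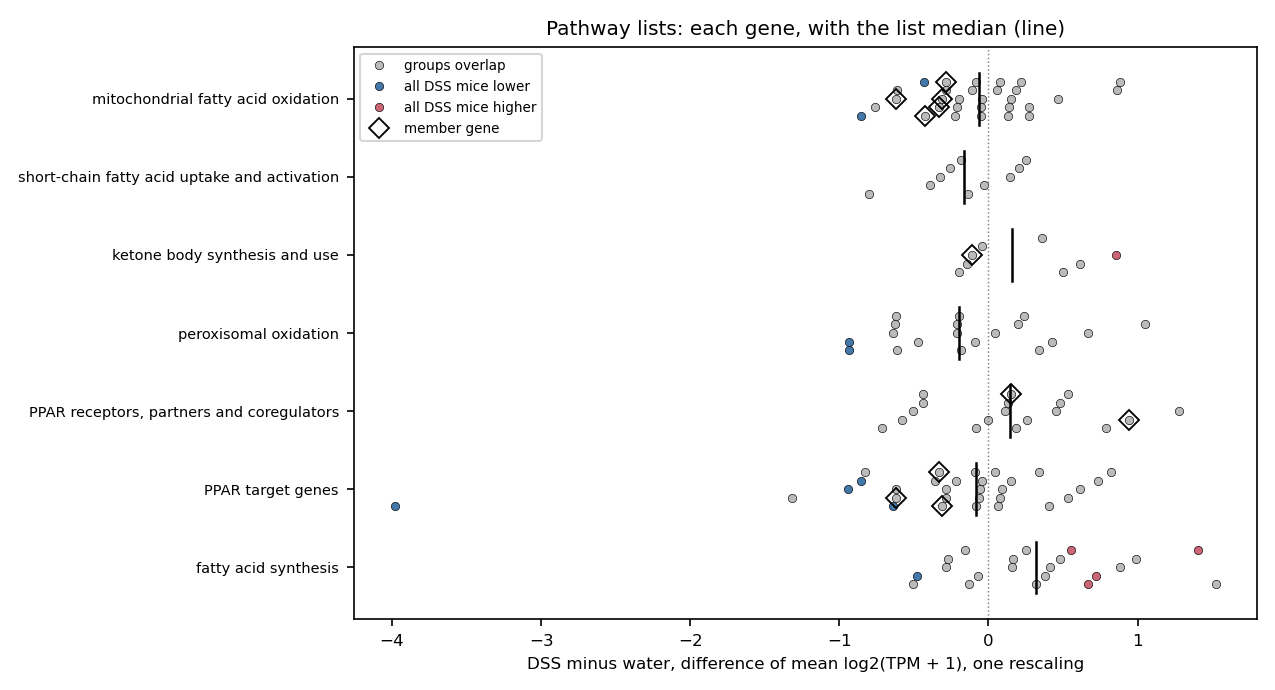
Difference between DSS and water mice (horizontal axis, mean log2(TPM + 1) after the single rescaling) for each gene of 7 pathway lists, coloured by whether the groups overlap, with the list median as a line and member genes in diamonds. Cd36 lies farthest left at -3.98, the synthesis list holds 4 genes higher in all DSS mice, and the member enzymes lie left of 0 without separating.

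No gene of the 7 lists was called for genotype in either treatment. Etfdh after DSS (unadjusted p = 0.0416, limma) and Acsl3 and Ucp2 in water (unadjusted p = 0.0444 and 0.0458, limma) were the list genes with an unadjusted p under 0.05. They were named after their values were seen, none had such a p in both treatments, and their adjusted p were 1.00, 0.86 and 0.86.

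Within the groups, the members did not vary as a single block. The mean of each of the 4 groups was subtracted from log2(TPM + 1) of the deposited values. Pearson's r over 16 mice was then 0.80 between Acads and Acaa2, 0.79 between Acads and Bdh1 and 0.78 between Acaa2 and Hadh. It was 0.10 between Cpt1a and Acads and 0.24 between Acadm and Acads. These points share library and scaling, and DSS control 3 is among them.

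The genes closest to each member by that measure, among those averaging 5 TPM or more, were as follows. Acads was most like Pccb, a subunit of propionyl-CoA carboxylase, Slc25a10 and Zfp787 (r = 0.96, 0.96 and 0.95). Bdh1 was most like Fut2, Cdx1, a homeobox factor of the intestinal epithelium, and Jup (r = 0.94, 0.93 and 0.92), and Acaa2 was most like Acsf2, Ccs and Naprt (r = 0.88, 0.87 and 0.87). For Hadh they were Pgm1, Cox6c, a subunit of cytochrome c oxidase, and Mcoln1 (r = 0.84, 0.83 and 0.81), and for Acadm Pbld2, Cib1 and Enpp5 (r = 0.84, 0.81 and 0.81). Cpt1a had the weakest neighbours, Pxmp4, a peroxisomal membrane protein, Flrt3 and Plvap (r = 0.79, 0.78 and 0.76). Ppara, Pparg and Angptl4 were below 5 TPM on average and were not compared.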

How the data were processed

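RNA of sorted EpCAM+ cells of 16 mice was sequenced as stranded libraries with single reads of 75 bases. The authors quantified reads with kallisto and tested genotype with sleuth (version 0.44.0 in the key resources), per the labels on mm10. The transcript release is not given in the sources used here. The authors deposited a table per treatment with TPM for principal isoforms, scaled within the table, and the mean natural log of estimated counts over its mice. Their p-values, q-values and log2 ratios of genotype were not used.

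Of 29373 lines a table, 385 repeats with equal values were dropped, and TPM were summed by gene symbol over 28988 transcripts. Depth per mouse is not given, and the authors' mean counts served for what a read is worth. Genotype was tested in each treatment with limma 3.58.1 (R 4.3.3) with a trend on log2(TPM + 1), on genes averaging 1 TPM or more, and called after Benjamini-Hochberg correction at 0.05. The test was checked on simulated data. Fold changes on that scale understate changes of low genes. Single members were also compared with exact two-sided permutation tests of TPM, 18 in all and not adjusted. DSS against water was described only. Alternatives were another pseudocount, other minimums, other scalings, a replicate block, cage, array weights, subsets of mice and leaving out each mouse.

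The members, lists and tests were chosen with earlier results of these data known. Named genes were all members and, for each list, up to 3 genes a direction without overlap and averaging 5 TPM or more, plus Ppard, Slc16a1, Slc5a8, Pdk4, Plin2 and Ppargc1a. Some genes that this rule names are not reported here. The likeness of genes used the 3 highest r for each member. In the files Mmut has its older symbol, matched through RefSeq, and Eci1 and Myh11 were not found by symbol. Same-numbered mice deviated together with r between -0.20 and 0.09, so the numbers were not taken as pairs. Positions are from GENCODE M21 (GRCm38), and promoters from RefSeq (GRCm38.p6). Figures were drawn with matplotlib.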

Additional observations from a re-analysis of the deposited data

Results flagged for a closer look

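In 4 of 26 comparisons, the group values of a member held a mouse far from the others of its group, where about 1 in 20 such groups is set apart by chance. Deposited TPM of Cpt1a was 57.5 in water mouse 5 labelled knockout and 41.1 to 43.2 in the other 4 of its group. The same mouse had 13.1 TPM of Pparg, against 0 to 0.687 in the others. Acadm was 44.4 in water mouse 4 labelled knockout and 53.0 to 55.9 in the others. Acads was 59.3 in DSS mouse 3 labelled knockout and 64.0 to 64.7 in the others. The DSS controls, with 3 mice, were too few for this comparison.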

How the results depend on the processing

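Genes called for genotype after DSS numbered 1 in the main test and 0 with a pseudocount of 0.1, with no minimum (smallest adjusted p 0.072) or with the replicate block, and 0 to 3 when a mouse was left out. In water they numbered 1, and 0 with a pseudocount of 0.1, a minimum of 5 TPM or the replicate block, 4 with no minimum, and 1 to 2 when a mouse was left out. The replicate block drops the unpaired mouse labelled knockout of each treatment. At an unadjusted p under 0.05 the block left 171 genes after DSS and 616 in water. It changed no call of a member. Cage called 3 to 7 genes when a mouse was left out. In 341 alternative fits of the 8 members for genotype or cage, 0 passed an adjusted p of 0.05. Angptl4 was tested only without a minimum, and its call in water rests on that run.

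The sign of small genotype differences turned. After DSS, array weights gave 0.054 for Acaa2, 0.13 for Acads and 0.093 for Bdh1. Cage as a covariate gave 0.0052 for Bdh1, with an SE of 0.11 beside 0.20 in the main test. In water, the block gave -0.0042 for Acadm. When a mouse was left out, the DSS values ran from -0.22 to 0.12 for Acaa2, -0.24 to 0.21 for Acads, -0.16 to 0.16 for Bdh1, -0.059 to 0.093 for Cpt1a and -0.17 to 0.085 for Ppara. Those of Pparg after DSS kept their sign, from -2.77 to -0.37. In water they ran from -0.071 to 0.13 for Acaa2, -0.013 to 0.077 for Acadm, -0.027 to 0.15 for Acads, -0.051 to 0.14 for Bdh1, -0.22 to 0.013 for Cpt1a and -1.001 to 0.15 for Pparg. For cage they ran from -0.059 to 0.19 for Cpt1a and -0.21 to 0.22 for Ppara. The causes were not tested.

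Members lower after DSS without overlap numbered 0 with all mice, 1 with controls only and 3 with mice labelled knockout only. Of all genes, 7.20%, 14.8% and 18.4% were lower in these settings, a larger share where fewer mice were compared. When a mouse was left out, 0 to 2 members were lower, beside 7.23% to 12.4% of all genes. The 2 and the 12.4% were without DSS control 3. Members higher numbered 0 in each of these, beside 4.09% of all genes with all mice, 9.54% with controls only and 17.0% with mice labelled knockout only. In all 144 cases, leaving out a mouse moved a member's difference by less than the between-mouse SD. A single mouse can hardly move a mean of 7 or 9 mice by that much, so this does not show that the differences are stable. That of Pparg ran from 0.54 to 1.30. Low counts limit Angptl4, Ppara and Pparg.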
